A study of Homo sapiens with 148 samples.

Results

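The genes described here are 10 genes of the neuronal cytoskeleton and of neuronal identity, TUBB3, STMN2, DCX, MAP2, ELAVL3, ELAVL4, NEFL, NEFM, CNTN2 and MIR124-2HG, followed through an in vitro differentiation that is aimed at the pancreas. They were taken by name from a table of 49085 gene names, of which 28202, all 10 included, reached a level of 1 in at least 1 stage, in the unit TPM explained below. The set was chosen by its mean TPM in this same table, where its level is high in a stage called PH, so the level in PH is a description and no support for anything. The cells were H9, an established line of human embryonic stem cells (hESCs) and therefore 1 genetic background, of wild-type genotype throughout. They were sampled undifferentiated (hESCs), as definitive endoderm (DE, day 4), as primitive gut tube-like cells (PGT, day 7), as pancreatic progenitors (PP, day 14), as PH and as organoids meant to hold β cells derived from the stem cells (SC-β organoids, day 35). All 5 later stages carry the label of pancreatic differentiation; the labels and the study's methods do not spell out PH, its day is not given in the sources used here, and it is written as the labels write it.

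RNA-seq covers 12 of the 148 samples of the series, 2 biological replicates at each of the 6 stages. The values are TPM, a share of the RNA of a library divided by transcript length, so levels can be compared between genes as well as between stages. The authors deposited 1 mean over both replicates for each gene and stage. The spread between replicates and the depth are therefore unknown, no value below carries an error, and no difference was tested. Differences are given as log2 ratios after adding 1 TPM to each mean, and 2-fold on that scale is used to count genes. Because TPM shares out a fixed total, a few structural RNAs that took between 31.8% (DE) and 50.9% (PH) of it bear on every other value. The samples are bulk RNA, in which fewer cells of a type and less RNA per cell cannot be told apart.

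Neurons build long processes on bundles of microtubules and intermediate filaments. These 10 genes encode or regulate parts of that machinery or belong to neuronal identity. TUBB3 encodes the β-tubulin typical of neurons, STMN2 a stathmin that regulates microtubule turnover in growth cones, DCX a microtubule-binding protein of young migrating neurons, and MAP2 the microtubule-associated protein of dendrites. NEFL and NEFM encode the light and medium neurofilament subunits, ELAVL3 and ELAVL4 the neuronal RNA-binding proteins HuC and HuD, and CNTN2 an adhesion molecule of axons. MIR124-2HG is the host transcript of a copy of miR-124, a microRNA abundant in neurons that lowers many non-neuronal transcripts, among them those of the splicing factor PTBP1. Many neuronal genes are held off in other cells by the repressor REST, which binds a long motif called RE1. Hormone-producing cells of the pancreas share part of this neuronal programme.

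Sequences around the starts of the members were read for the letters of REST and of E-boxes, the sites of proneural transcription factors. RefSeq promoters on GRCh38.p14, from 250 bases before to 50 bases after an annotated start, were matched for 5 members, ELAVL4, CNTN2, MAP2, TUBB3 and DCX. None of the 5 holds TTCAGCACC, found in 0.376% of 35116 promoters on either strand, or GGACAGC, found in 6.03%; this says only that these letters are not in these windows. The E-box CAGCTG, in 17.9% of all promoters, is in those of ELAVL4, and CAGATG, in 14.7%, is in those of ELAVL4, MAP2 and DCX. Of the 17 promoters of the 5 members together, 7 of them of ELAVL4, 2 hold CAGCTG and 4 hold CAGATG. Shares by gene are not given, because these members have more promoters each than the 1.29 per gene of the whole table. The E-boxes are shown in capitals with 7 bases on either side, on the strand of the gene; a CATCTG is a CAGATG read on the other strand.
ELAVL4, chr1:50103863-50103882, first E-box base at -39 from a start: aggtctgCAGCTGtgttcgg
ELAVL4, chr1:50119736-50119755, first E-box base at -43 from a start: agaacttCAGCTGttctcag
ELAVL4, chr1:50108874-50108893, first E-box base at -39 from a start: cggctgaCAGATGgtcccat
ELAVL4, chr1:50106230-50106249, first E-box base at 7 after a start: tacagtcCATCTGgactctg
MAP2, chr2:209579314-209579333, first E-box base at -11 from a start: aggagacCAGATGatgacat
DCX, chrX:111412086-111412105, reverse strand, across a start: aatgtaaCAGATGtcaaacg

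A shorter form of RE1, CAGCACC and GGACAG with 2 bases between them, was then looked for within 10 kb of the annotated start of each gene on hg38; these letters were chosen after the longer ones had given no match. They occur 820 times in the genome on both strands together, and near the starts of 371 of 38912 protein-coding and long non-coding genes (0.953%). Among the members they are near TUBB3, NEFM and MIR124-2HG, 3 of 10, against 163 of 15825 (1.03%) of the names at 1 TPM that could be matched. The match of TUBB3 lies in intron 1 of its canonical transcript, at chr16:89926506-89926520, 5114 bases after the start of the gene. It is shown with 16 bases on either side (chr16:89926490-89926536, forward strand) and the matched letters in capitals, as the example that a reader can set beside the known motif.
TUBB3, intron 1: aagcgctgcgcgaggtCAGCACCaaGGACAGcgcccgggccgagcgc
A match of letters is a description of the sequence and not evidence of a bound site.

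The members lie on 6 chromosomes, and 4 of them are on chromosome 8. Positions are those of GENCODE version 44 on hg38, the build the authors used. TUBB3 (ENSG00000258947.8) is at chr16:89921392-89938761 on the forward strand, STMN2 (ENSG00000104435.14) at chr8:79611117-79666158 on the forward strand, and DCX (ENSG00000077279.21) at chrX:111293779-111412429 on the reverse strand. MAP2 (ENSG00000078018.22) is at chr2:209424047-209734147, ELAVL4 (ENSG00000162374.18) at chr1:50024029-50203772 and CNTN2 (ENSG00000184144.12) at chr1:205042937-205078289, all on the forward strand. ELAVL3 (ENSG00000196361.10) is at chr19:11451326-11481046 on the reverse strand, and MIR124-2HG (ENSG00000254377.8), annotated as a long non-coding RNA, is at chr8:64373105-64383919 on the forward strand. NEFM (ENSG00000104722.14, chr8:24913758-24919098, forward) and NEFL (ENSG00000277586.4, chr8:24950955-24956721, reverse) are neighbours that face each other with 31856 bases between them. TUBB3 overlaps a gene that reads through into it (ENSG00000198211.8, chr16:89919165-89936092), and reads of the shared exons could be split between them in ways the table does not show.

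Summed over the 10 members, the mean level was 145.7 TPM in hESCs, 77.3 TPM in DE and 127.7 TPM in PGT. It was 186.8 TPM in PP, 1767 TPM in PH and 282.6 TPM in SC-β organoids. TUBB3 alone made up 90.9% of this sum in PGT, 80.2% in hESCs, 30.8% in PH and 19.2% in SC-β organoids. The median member was at 1.45, 1.82, 0.166, 8.24, 149.5 and 28 TPM in the same order of stages. The low point of the median is thus PGT, where 6 members had their lowest value and STMN2 and MIR124-2HG were listed at 0. In PP 9 members reached 1 TPM, against 4 in PGT, and in PH all 10 reached 10 TPM, against 6 in SC-β organoids.

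**Figure D1:**
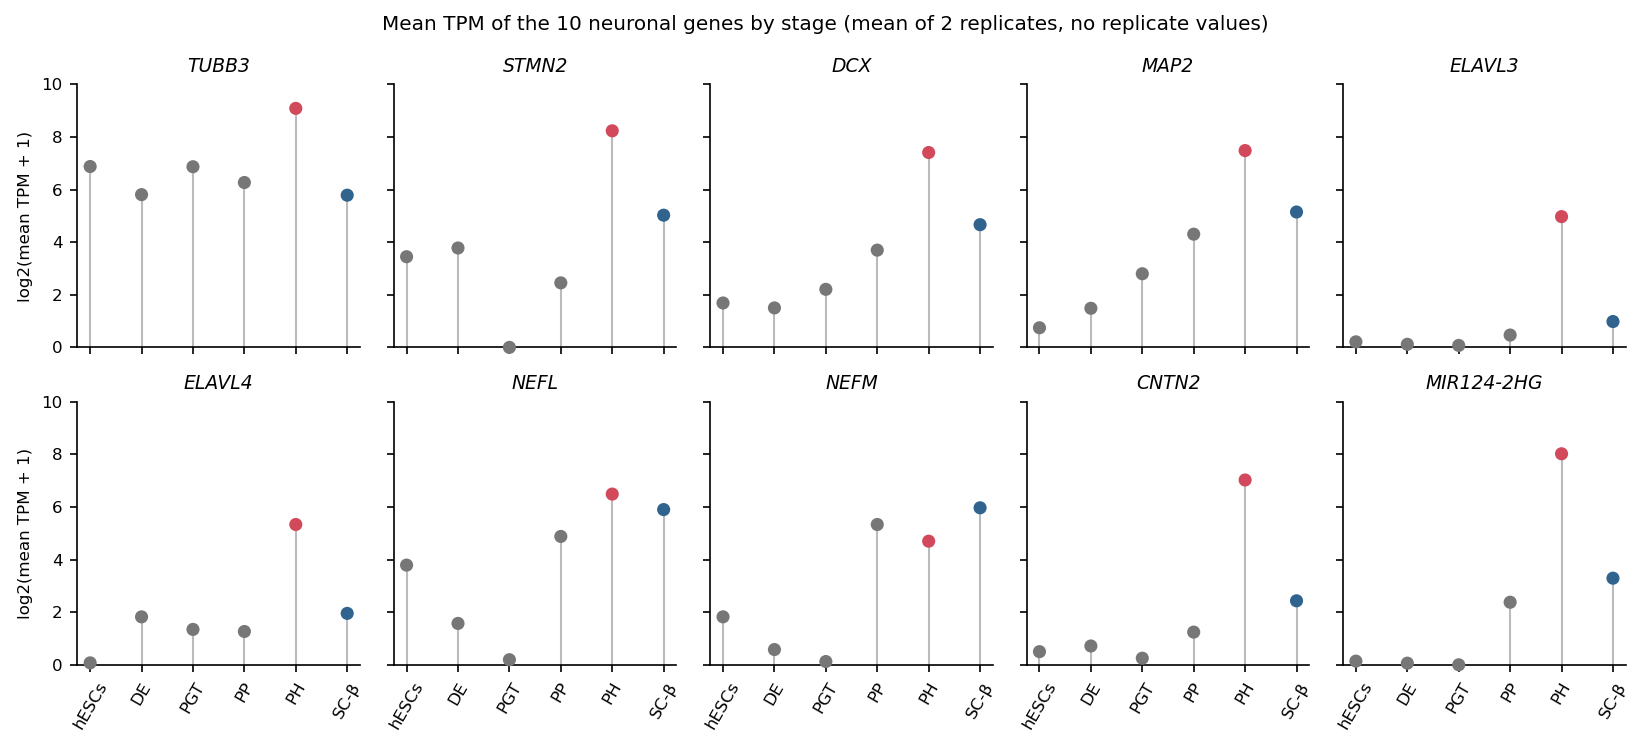
Mean TPM of the 10 genes on a log2(TPM + 1) axis in the 6 stages. Each point is the authors' mean of 2 replicates (red PH, blue SC-β organoids, grey the other stages). There are no error bars because replicate values are not given. PH is the highest point for 9 genes, from 30.4 TPM (ELAVL3) to 545 TPM (TUBB3), and SC-β organoids for NEFM, at 61.8 TPM.

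PH was the stage of the highest mean for 9 of the 10 members, where 13.5% of the 28202 names had theirs, and 8 members were there at least 4-fold above every other stage on the log2 scale, as were 0.681% of all names. These are the values that chose the set, and nothing is read from them. NEFM was the exception, with its highest mean in SC-β organoids. Just inside the 4-fold limit was TUBB3, at 2.21 above its second stage on the log2 scale, and outside it were NEFL, at 0.59, and NEFM, which was lower in PH than in PP. PH held between 19.4% (NEFM) and 95.2% (MIR124-2HG) of a member's TPM summed over the 6 stages.

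Among the microtubule genes, TUBB3 was at 116.8 TPM in hESCs and 55.1 in DE, then 116.1 in PGT, 76.3 in PP, 544.8 in PH and 54.3 in SC-β organoids. It was the most abundant member in every stage but SC-β organoids, and it is the one member whose lowest mean was in the organoids. Without PH its stages span 54.3 to 116.8 TPM, hESCs and PGT at the top. The table has a pair of entries named TUBB3, which were summed; one of them was at 25.1 TPM in PH and at or near 0 elsewhere, and the other at 519.7 TPM in PH.

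STMN2 was at 9.92 TPM in hESCs and 12.7 in DE, listed at 0 in PGT, at 4.48 in PP, 301 in PH and 31.7 in SC-β organoids. Its lowest mean was thus in the gut tube stage and its 2 highest were in PH and SC-β organoids. The PH mean of STMN2 was 67.2 times that of PP (log2 ratio 5.78). DCX was at 2.23, 1.83, 3.62, 12, 169 and 24.4 TPM from hESCs through DE, PGT, PP and PH to SC-β organoids. MAP2 was at 0.677, 1.80, 5.97, 18.8, 178 and 34.5 TPM in the same order. For MAP2 each stage from hESCs to PP was higher than the one before, and for DCX this held from DE on. PP was 27.7 times hESCs for MAP2 (log2 ratio 3.56) and 5.39 times for DCX (2.01), and the 2 courses had a Pearson r of 0.974 over the 6 stages.

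Both neurofilament subunits lay outside the 4-fold limit in PH, and NEFM alone had its highest mean in SC-β organoids. NEFL was at 12.8 TPM in hESCs and 1.97 in DE, then 0.143 in PGT, 28.5 in PP, 89.1 in PH and 58.9 in SC-β organoids. NEFM was at 2.54, 0.494, 0.0890, 39.4, 25.0 and 61.8 TPM in that order. Both were lowest in PGT and at or above 25.0 TPM in PP, PH and SC-β organoids. For NEFM, PH was below both PP (log2 ratio -0.63) and SC-β organoids (-1.27). With median-ratio rescaling of the stages the last value was -0.79, under 2-fold. The level of NEFM per level of NEFL was 0.198 in hESCs and 0.250 in DE, then 0.622 in PGT, 1.38 in PP, 0.281 in PH and 1.05 in SC-β organoids. The ratio of these neighbouring genes was thus lower in PH than in the stages on either side of its column, and near that of DE, where both genes were low. In the heavy subunit NEFH no stage passed 3.46 TPM, and PH was at 1.36 TPM.

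The RNA-binding proteins were low outside PH. ELAVL3 was at 0.158 TPM in hESCs and 0.0850 in DE, then 0.0534 in PGT, 0.385 in PP, 30.4 in PH and 0.976 in SC-β organoids, so that PH is the one stage in which it reached 1 TPM. ELAVL4 was at 0.0519, 2.54, 1.54, 1.41, 39.4 and 2.88 TPM in that order, with values from DE to SC-β organoids other than PH between 1.41 and 2.88 TPM. Their PH means were 31.2 and 13.7 times those of SC-β organoids (log2 ratios 3.99 and 3.38).

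CNTN2 was at 0.414 TPM in hESCs and 0.641 in DE, then 0.190 in PGT, 1.37 in PP, 129.7 in PH and 4.40 in SC-β organoids. MIR124-2HG was at 0.101 and 0.0430 TPM in hESCs and DE, listed at 0 in PGT, and at 4.20 in PP, 259.7 in PH and 8.81 in SC-β organoids. Both were 29.4 or 29.5 times higher in PH than in SC-β organoids (log2 ratios 4.60 and 4.73), and PP stood below SC-β organoids for both. A host transcript is not a measure of the mature microRNA, which such libraries do not capture.

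Set against hESCs, the members 2-fold higher were few in DE, near the share of all names in PGT and above it in PP. In DE 1 of 10 was at least 2-fold higher (22.5% of all names) and 3 lower (4.43%), with a median log2 ratio of -0.09 beside 0.44 over all names. The one higher was ELAVL4 (1.75) and the lowest ratio was that of NEFL (-2.22). In PGT 2 members were higher (17.6% of all names) and 3 lower (7.56%), with a median of -0.14 beside 0.29. MAP2 (2.06) and ELAVL4 (1.27) were the higher pair, and NEFL (-3.60) was again at the low end. In PP 6 of 10 were higher (13.9% of all names), MAP2 and NEFM by most (3.56 and 3.51), and the median was 1.14 beside 0.24. In PP 0 members were 2-fold lower than in hESCs (7.07% of all names), STMN2 standing just short of it at -0.99. Ratios to such low hESC values depend on the pseudocount: with 0.1 TPM, ELAVL4 was at 4.12 in DE and 3.43 in PGT, NEFL at -5.73 in PGT, and the median in PP at 1.95.

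In SC-β organoids 8 of 10 members were at least 2-fold higher than in hESCs, where 38.6% of all names were, and TUBB3 was lower (log2 ratio -1.09), as were 6.44% of names. The members' median was 2.02 beside 0.73 over all names, and 3.27 with a pseudocount of 0.1 TPM. In PH 10 of 10 were higher than in hESCs (21.0% of all names, with 14.5% lower), from 2.21 for TUBB3 to 7.89 for MIR124-2HG, a contrast in which the members were chosen. Both comparisons share the hESC samples.

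Between PP and the organoids the members lay closer together. In SC-β organoids 3 of 10 were at least 2-fold higher than in PP (18.5% of all names), STMN2 (2.57), CNTN2 (1.19) and NEFL (1.02), and 0 were lower (1.63%). The median was 0.88 beside 0.39. DCX (0.97), MIR124-2HG (0.91) and MAP2 (0.84) lay just under 2-fold, and the count moves between 1 and 6 with the scaling or pseudocount. Leaving PH out, SC-β organoids were the stage of the highest mean for 9 members, all but TUBB3.

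PH and PP differed by more, with 9 of 10 members at least 2-fold higher in PH (8.94% of all names), and a median log2 ratio of 3.89 beside -0.09. The ratios ran from 1.61 for NEFL to 5.79 for CNTN2, NEFM being the one not higher; 0 were lower by 2-fold (9.97% of all names). Against SC-β organoids 8 of 10 were higher in PH (4.19% of all names) and NEFM was lower (25.5% of all names). The median was 3.26, beside -0.53 over all names. The set was chosen on these differences, so the shares of all names are given as the background only.

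**Figure D2:**
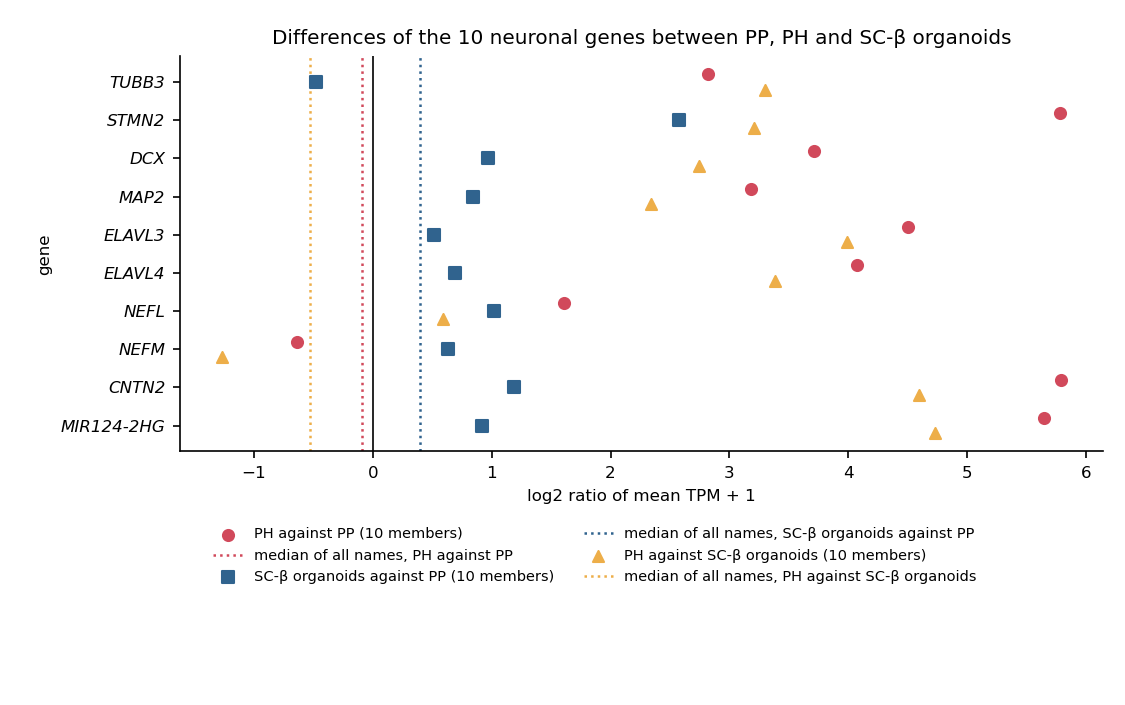
Log2 ratios of mean TPM + 1 for each of the 10 genes: PH against PP (red circles), SC-β organoids against PP (blue squares) and PH against SC-β organoids (yellow triangles), with dotted lines at the median over 28202 names (-0.09, 0.39 and -0.53). NEFM is left of 0 for both PH ratios, at -0.63 and -1.27, and TUBB3 is the one gene left of 0 in SC-β organoids against PP, at -0.48.

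The courses of the members over the 6 stages were alike for some and not for others. Over 45 pairs Pearson's r of log2(TPM + 1), a description over 6 stage means that share one table and one PH column, had a median of 0.793, and 12 pairs were at 0.9 or more. The highest was between ELAVL3 and CNTN2 (0.991) and the lowest between TUBB3 and NEFM (0.112). NEFL and NEFM had an r of 0.918. Against the mean course of the members, MIR124-2HG (0.998), DCX (0.978) and CNTN2 (0.977) were closest, and NEFM (0.627) and TUBB3 (0.663) farthest.

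Of 11884 other genes at 10 TPM or more in a stage, 119 (1.00%) had an r of 0.95 or more with the mean course. The 10 highest were GAD2, KLHL13, PDE1A, NEUROG1, SCN3A, WDR47, NOTCH1, ABCA3, TTYH1 and NEUROD4, with r from 0.997 to 0.990. NEUROG1 and NEUROD4, transcription factors of young neurons, were at 19.8 and 17.0 TPM in PH and at 2.21 and 1.37 TPM in SC-β organoids. GAD2, which makes the transmitter GABA, was at 22.6 and 3.82 TPM, and SCN3A, a sodium channel subunit, at 37.1 and 2.57 TPM. PDE1A was at 16.3 and 2.59 TPM. KLHL13, WDR47, NOTCH1, ABCA3 and TTYH1 were above 1 TPM in all 6 stages. The mean course includes the PH column that chose the members, so the ranking is a description and no support. Ranked by distance instead of r, 4 of the 10 were again among the first 10: TTYH1, SCN3A, GAD2 and NEUROG1.

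The families of the members did not share their course as a whole. Among the β-tubulins, TUBB2B was at 130.7 TPM in PP, 572.7 in PH and 74.6 in SC-β organoids, and TUBB2A at 29.1, 176.7 and 30.0 TPM. TUBB, the common isotype, was at 1206, 1000 and 1004 TPM, and TUBB4B was lower in PH, at 127.7 TPM against 239.2 and 231.2. TUBB4A (7.47 TPM in PH), TUBB6 (25.9) and TUBB1 (0.810) were minor. TUBB2A, TUBB2B and TUBB3 are close in sequence over much of their length, and how the authors' counting shared reads between them is not given in the sources used here. Of the 6 other β-tubulins at 1 TPM, 3 were at least 2-fold above SC-β organoids in PH (4.19% of all names), TUBB2A, TUBB2B and TUBB4A. In hESCs TUBB2A was at 290.9 TPM, above its PH mean, and TUBB2B at 442.2 TPM.

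STMN4, a neuronal stathmin, was listed at 0 in hESCs and DE and was at 0.138 TPM in PP, 61.4 in PH and 2.13 in SC-β organoids. STMN1, common in dividing cells, was at 379.6, 291.3 and 248.0 TPM in PP, PH and SC-β organoids, and STMN3 at 25.6, 35.6 and 18.3 TPM. Of the stathmins STMN2 and STMN4 thus had the wide gaps. In the ELAVL family the third neuronal gene, ELAVL2, was at 6.11 TPM in PP, 48.8 in PH and 9.84 in SC-β organoids, whereas ELAVL1, which most cells express, had its lowest mean in PH (17.2 TPM, against 22.4 to 33.7 elsewhere).

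Of the doublecortin family, DCLK1 was at 36.5 TPM in PH and 28.8 in SC-β organoids and DCLK2 at 26.4 and 23.6, both under 2-fold apart. DCLK1 was at 36.1 TPM in hESCs. DCDC2, a ciliary member, was at 10.5 TPM in PP, 0.936 in PH and 4.31 in SC-β organoids, and DCLK3 was at 0.0717 TPM in PH. DCX was therefore the member of its family with the wide gap between PH and the organoids. Among the microtubule-associated proteins, MAP6 was at 2.72, 74.8 and 22.9 TPM in PP, PH and SC-β organoids, MAP1B at 39.9, 219.2 and 99.3 TPM, and MAPT, which encodes tau, at 1.30, 17.1 and 1.5 TPM. MAP1A (11.7 TPM in PH), MAP1S (10.3) and MAP4 (68.7) were within 2-fold of SC-β organoids.

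The other intermediate filaments differed from each other too. INA, which encodes internexin of immature neurons, was at 1.79 TPM in PP, 82.2 in PH and 4.29 in SC-β organoids, and PRPH, which encodes peripherin, at 0.219, 7.82 and 1.75 TPM. NES was at 50.9, 135.8 and 111.3 TPM, and VIM, widespread in progenitors and mesenchyme, at 352.9, 1437 and 1767 TPM. Of the contactins CNTN2 alone was far higher in PH than in SC-β organoids. CNTN1 was at 22.2 TPM in PH and 8.48 in SC-β organoids, CNTN4 at 11 and 22.3, CNTN3 at 6.70 and 8.41, CNTN5 at 5.56 and 4.55, and CNTN6 at 0.550 and 3.53. Against PP, 3 of the 5 other contactins were at least 2-fold higher in PH (8.94% of all names), CNTN1, CNTN3 and CNTN5. The host gene of another miR-124 copy, listed as LINC00599, was at 3.23 TPM in hESCs and 0.693 in DE, then 0.0246 in PGT, 0.219 in PP, 79.5 in PH and 1.14 in SC-β organoids.

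**Figure D3:**
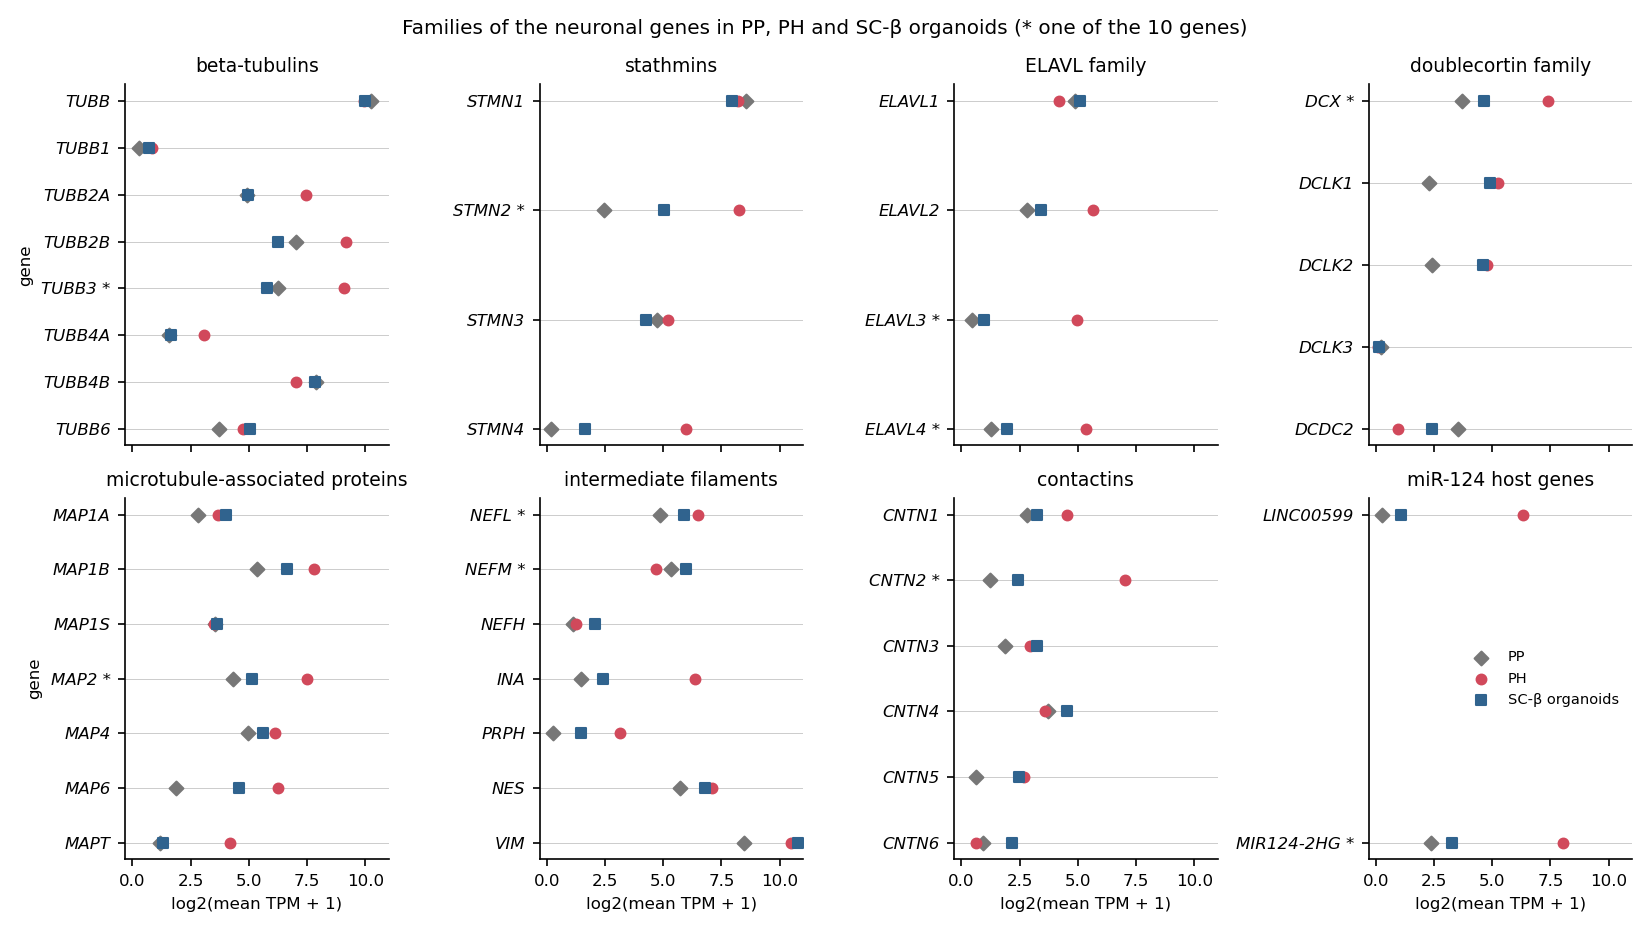
Mean TPM, on a log2(TPM + 1) axis, of every gene of the families of the members in PP (grey diamonds), PH (red circles) and SC-β organoids (blue squares); asterisks mark the 10 genes, each point is a mean of 2 replicates, and no error can be given. In PH, STMN2 (301 TPM) and STMN4 (61.4 TPM) lie far right of SC-β organoids whereas STMN1 (291 TPM) does not. Among the contactins CNTN2 (129.7 TPM) alone lies far right of SC-β organoids.

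Wider lists of neuronal genes were read beside the members. They too were chosen with results of this table known. Of all names, 8.94% were at least 2-fold higher and 9.97% lower in PH than in PP. Against SC-β organoids, 4.19% of all names were higher and 25.5% lower in PH. List counts near these shares are not read as results about the list. Of 27 genes of axon growth and cytoskeleton, 21 were at least 2-fold higher in PH than in PP and 20 higher than in SC-β organoids, and 0 were lower in either, with medians of 2.12 and 1.54. The α-tubulin TUBA1A was at 528.5 TPM in PP, 2049 in PH and 268.7 in SC-β organoids, and the growth cone proteins DPYSL2 and DPYSL3 were at 227.8 and 195.7 TPM in PH against 138.5 and 30.5 in SC-β organoids. Of 15 neuronal RNA-binding proteins, 11 were higher in PH than in PP and 9 higher than in SC-β organoids, with medians of 2.62 and 1.19. The splicing regulator CELF3 was at 2.23, 73.0 and 6.63 TPM in PP, PH and SC-β organoids, whereas RBFOX2 (113, 142 and 175 TPM), MSI1 (15.8, 41.7 and 17.7) and PTBP2 (60.4, 85.5 and 56.1) were expressed in all 3.

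Of 17 genes of the synapse that reached 1 TPM, 11 were higher in PH than in PP (8.94% of all names). Against SC-β organoids 8 were higher in PH (4.19% of all names). The medians were 1.78 and 0.99. The calcium sensor SYT1 was at 4.64 TPM in PP, 39.1 in PH and 40.9 in SC-β organoids, and VAMP2 of the vesicle membrane at 7.20, 12.2 and 14 TPM. CPLX2, a regulator of vesicle fusion, was at 0.611, 18.1 and 2.82 TPM, the scaffold DLG4 at 13.9, 44.3 and 21.3 TPM, STX1A at 14.5, 27.8 and 19.6 TPM, and SV2A at 18.1, 17.3 and 8.21 TPM. SYT1 was also at 43.8 TPM in hESCs.

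For transmitters, 6 of 10 genes at 1 TPM were at least 2-fold higher in PH than in PP (8.94% of all names) and 1 lower (9.97%). Against SC-β organoids 6 were higher in PH (4.19% of all names) and 2 lower (25.5%). The medians were 2.00 and 1.91, and both lower counts are near the shares of all names. SLC6A5, which takes up glycine, was at 0.188 TPM in PP, 24.7 in PH and 0.123 in SC-β organoids. SLC17A6, which loads vesicles with glutamate, was at 0.0895, 17.0 and 2.14 TPM, and GAD1, a maker of GABA, at 2.38, 19.7 and 1.05 TPM. GAD1 was also at 10.8 TPM in hESCs and 11.4 in DE. SLC6A4, the serotonin transporter, went the other way, at 0.788 TPM in PH and 3.72 in SC-β organoids. Genes of inhibitory and of excitatory transmission were thus both present in the PH column.

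The repressor REST, singled out after its values were seen, was at 20.9 TPM in hESCs and 34.3 in DE, then 29.8 in PGT, 11.8 in PP, 12.8 in PH and 35.7 in SC-β organoids, so PP and PH were alike in it. In its list with cofactors and targets of miR-124, 1 of 15 genes was at least 2-fold higher in PH than in PP (8.94% of all names). In the same comparison 4 were lower (9.97%), and the median was -0.58 beside -0.09 over all names. PTBP1 was at 234, 210, 194, 130, 45.4 and 146 TPM from hESCs to SC-β organoids, with its lowest mean in PH. CTDSPL was at 10.8 TPM in PP, 2.93 in PH and 24.8 in SC-β organoids, ITGB1 at 172, 75.4 and 127 TPM, and LAMC1 at 110, 25.4 and 112 TPM. JAG1 (49.6, 59.6 and 51.1 TPM) and SOX9 (23.7, 27.2 and 25.2 TPM) of the same list were not lower in PH. The corepressor RCOR2 was higher in PH, at 34.5, 98.3 and 27.7 TPM, and KDM1A (173, 166 and 139 TPM) and HDAC2 (142, 94.3 and 68.4 TPM) lay closer together. Against SC-β organoids 1 was higher in PH (4.19% of all names) and 5 lower (25.5%). The median was -0.70, close to the -0.53 of all names.

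Markers of other cells were read in the same columns, since the members are expressed by more than 1 kind of cell. Of 16 endocrine markers, 14 were at least 2-fold higher in SC-β organoids than in PP (18.5% of all names). In PH 13 were lower than in SC-β organoids (25.5% of all names). The markers summed to 355.4 TPM in PP, 278.8 in PH and 4307 in SC-β organoids. CHGA alone was at 215.1 TPM in PP and 70.0 in PH, so the sums of PP and PH depend on it. Against PP, 3 markers were at least 2-fold higher in PH (8.94% of all names), CHGB, SCG3 and INSM1. In that comparison 3 were lower (9.97%), CHGA, PAX4 and ISL1. GCG was at 27.2 TPM in PH against 2793 in the organoids, CHGA at 70.0 against 805, INS at 6.86 against 298 and SST at 65.8 against 203, and PAX4 was listed at 0 in PH. INSM1, shared by young neurons and endocrine cells, was higher in PH, at 26.5 against 8 TPM. The 8 enterochromaffin markers summed to 9.54 TPM in PP, 17.5 in PH and 131.2 in SC-β organoids; LMX1A was at 1.19 TPM in PH and 32.2 in the organoids, and MME (43.5), DDC (19) and TAC1 (11.8 TPM) were higher in the organoids as well. Hormone genes far higher in the organoids than in PP thus stood beside members that were closer together, and the part of endocrine cells in the members' organoid level was not tested.

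The 13 endoderm and pancreatic epithelium markers summed to 836.1 TPM in PP, 145.1 in PH and 552.2 in SC-β organoids. In PH 11 of 13 were at least 2-fold lower than in PP (9.97% of all names) and 10 lower than in SC-β organoids (25.5%). KRT8 was at 288, 21.4 and 210 TPM, KRT18 at 176, 40.8 and 113, EPCAM at 180, 29.3 and 79.4, and CDH1 at 92.6, 17.7 and 71.3 TPM in PP, PH and SC-β organoids. SOX17 was listed at 0 in PH, and was low in PP (0.985 TPM) and SC-β organoids (0.641 TPM) too. PDX1, which defines the pancreatic lineage, was at 3.17 TPM in PP, 0.0173 in PH and 1.57 in SC-β organoids. SOX9 was alike in the 3 stages, at 23.7, 27.2 and 25.2 TPM. The label of pancreatic differentiation on the PH samples thus stands beside an epithelial and pancreatic marker level below that of PP and of the organoids.

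Neural progenitor markers were high in PH beside the members. Of 13 at 1 TPM, 12 were higher in PH than in PP (8.94% of all names). Against SC-β organoids 9 were higher in PH (4.19%), and 0 were lower in either comparison. The sum of the markers was 208.2, 812.6 and 378.4 TPM in PP, PH and SC-β organoids. HES5, a target of Notch, was at 0.0882, 110 and 1.51 TPM, ZIC1 at 17.2, 173 and 73.7, PAX3 at 30.9, 97.3 and 72.6, and SOX2 at 68.2, 109 and 50.9 TPM. SOX2 was the marker not 2-fold higher in PH than in PP (log2 ratio 0.67), and it was higher in hESCs, at 132.8 TPM. Against hESCs, 11 of the 13 were at least 2-fold higher in PH (21.0% of all names). Of 12 spinal interneuron and motor neuron markers at 1 TPM, 8 were higher in PH than in PP (8.94% of all names) and 1 lower (9.97%). Against SC-β organoids 8 were higher in PH (4.19%) and 3 lower (25.5%). Both lower counts are near the shares of all names. LHX1 was at 0.525, 92.1 and 0.461 TPM in PP, PH and SC-β organoids, SKOR1 at 0.207, 57.1 and 0.272, and PAX2 at 0.227, 26.4 and 1.09 TPM. LHX1 was not confined to PH, since it was also at 56.8 TPM in DE. LBX1 was listed at 0 in PP and was at 24.4 TPM in PH and 1.97 in SC-β organoids. The motor neuron gene MNX1, named after its values were seen, was at 5.85, 1.71 and 5.04 TPM, and BARHL2 was listed at 0 in PP and at 0.665 TPM in PH and 6.11 in SC-β organoids.

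Of 11 peripheral and sensory neuron markers, 7 were higher in PH than in PP (8.94% of all names) and 2 lower (9.97%). Against SC-β organoids 3 were higher in PH (4.19%) and 2 lower (25.5%). POU4F1 was at 0.689 TPM in PP, 23.1 in PH and 2.16 in SC-β organoids, and POU4F2 at 0.459, 8.45 and 0.200 TPM. NTRK2, a neurotrophin receptor, was at 6.03, 88.3 and 118 TPM, NTRK3 at 0.483, 13.4 and 10.5 TPM, and ISL1 was higher in the organoids (18.9 TPM) than in PH (5.79 TPM). Neural crest and glial markers did not go with the members in PH against PP. Of 8 at 1 TPM, 0 were higher in that comparison (8.94% of all names) and 5 lower (9.97%). Against SC-β organoids 2 were higher in PH (4.19%), FOXD3 (log2 ratio 3.09) and TFAP2B (2.58), and 3 lower (25.5%). The sum of all 10 was 188.7, 65.7 and 54.1 TPM in PP, PH and SC-β organoids. ERBB3 was at 82.0, 11.1 and 31.6 TPM, S100B at 28.7, 0.910 and 3.93 TPM, and MBP at 11.3, 2.02 and 8.59 TPM. TFAP2B (37.0, 37.4 and 5.42 TPM) and FOXD3 (9.72, 10.5 and 0.353 TPM) were as high in PH as in PP.

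Mesenchymal markers were present in the columns of both PH and SC-β organoids. Their sum was 195.1 TPM in PP, 1016 in PH and 2011 in SC-β organoids. Of 10 markers, 9 were higher in PH than in PP (8.94% of all names) and 1 lower (9.97%). In PH 7 of 10 were lower than in SC-β organoids (25.5% of all names). COL1A2 was at 114, 435 and 509 TPM, COL3A1 at 14.9, 349 and 771 TPM, PDGFRA at 11.9, 58.1 and 205 TPM, and ACTA2 at 15.2, 3.57 and 73.1 TPM. PRRX1 was at 16.4, 52.9 and 213 TPM. The part of these cell types in the levels of the members was not tested.

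**Figure D4:**
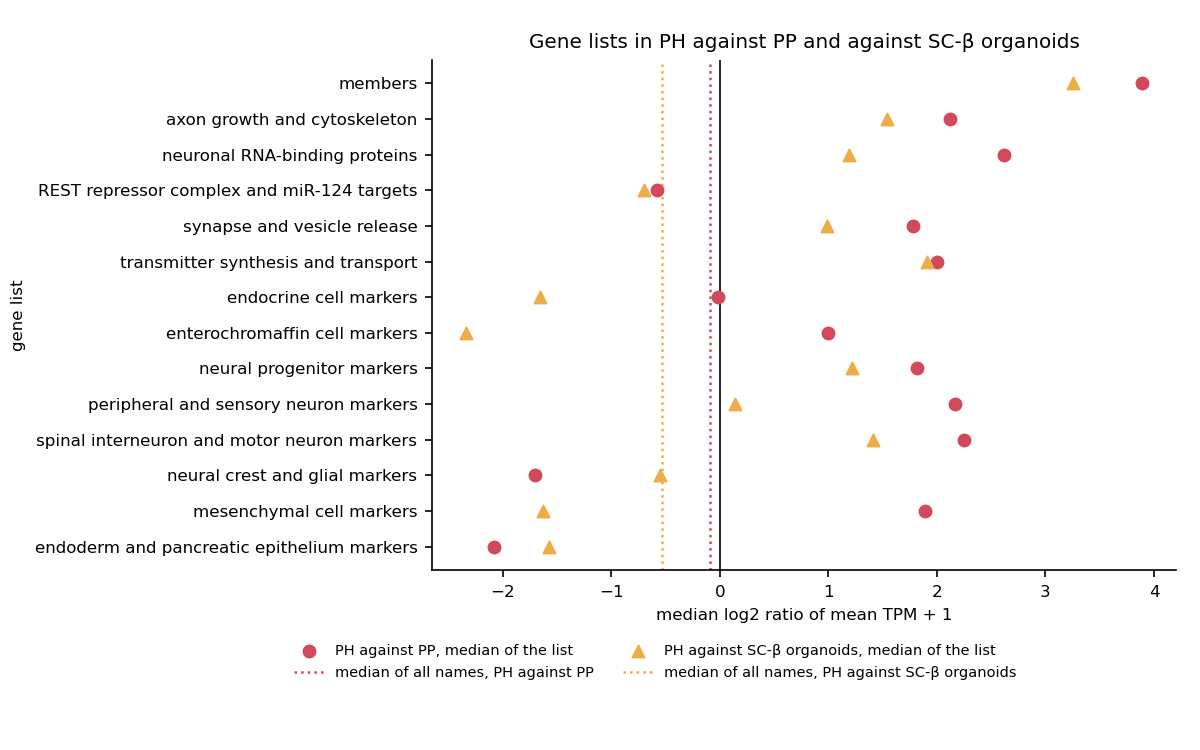
Median log2 ratio of mean TPM + 1 for the members and for each wider list (genes at 1 TPM or more in a stage), PH against PP (red circles) and PH against SC-β organoids (yellow triangles), with dotted lines at the medians over 28202 names (-0.09 and -0.53). The members lie at 3.89 and 3.26; endocrine markers lie at -0.01 and -1.66, and endoderm and pancreatic epithelium markers at -2.08 and -1.57.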

How the data were processed

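Total RNA of H9 hESCs and of 5 differentiated stages was sequenced in 2 biological replicates a stage. The methods name ribosomal RNA removal and the labels a stranded mRNA kit; which was used is not settled here. Per the labels, HISAT2 (version 2.2.0) and StringTie (version 2.1.6) were used with hg38, and the authors deposited TPM per gene as a mean of the replicates, with 50451 entries under 49085 names (231 names have several entries, summed here). The annotation is not given in the sources used here. Per-replicate values and read counts are not used here, so there is no error, interval, depth or test; 0 further per-sample columns were left out.

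Log2 ratios used a pseudocount of 1 TPM; counts used 2-fold; the background was the 28202 names at 1 TPM or more in a stage. Likeness was Pearson's r of log2(TPM + 1). Members, lists and comparisons were chosen with earlier results of these data known. Named genes were every member and family gene and, per list, the 4 highest in mean TPM, those with the highest and lowest PH to SC-β organoid ratio, and markers listed at 0; others were named after their values were seen. Alternatives were a pseudocount of 0.1, median-ratio rescaling, totals without the 100 most abundant names, the highest entry per name, a 4-fold threshold and no filter. A few genes are not reported here: with their values already seen, they were dropped from 3 lists and from the likeness ranking, which were then computed again. The arithmetic of the ratios, and no difference between stages, was checked on simulated data. Python 3.11.15, numpy 2.4.6, pandas 2.3.3 and matplotlib 3.10.9 were used.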

Additional observations from a re-analysis of the deposited data

How the results depend on the processing

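Of 320 recomputed log2 ratios of single members, 300 stayed on their side of 2-fold with the same sign and 0 of those past 2-fold turned. Part of these 300 could not change. The setting that kept the highest entry could alter TUBB3 alone, because the 9 other members have no further entry. The sizes of ratios to low hESC values did move with a pseudocount of 0.1: ELAVL4 went from 1.75 to 4.12 in DE, 1.27 to 3.43 in PGT, 1.19 to 3.31 in PP, 5.26 to 8.02 in PH and 1.88 to 4.29 in SC-β organoids, and the members' median from 1.14 to 1.95 in PP and 2.02 to 3.27 in SC-β organoids. In the same way NEFM went from -1.24 to -2.15 in DE and -1.70 to -3.80 in PGT, NEFL from -3.60 to -5.73 in PGT, MIR124-2HG from 2.24 to 4.42 in PP and 3.15 to 5.47 in SC-β organoids, and CNTN2 from 1.93 to 3.13 in SC-β organoids. With totals recomputed without the 100 most abundant names, ELAVL4 was at 1.94 in PGT and 1.95 in PP against hESCs, and NEFM at -0.83 in PH against SC-β organoids (-0.79 with median-ratio rescaling). With a pseudocount of 0.1, 2 members were 2-fold higher in DE than in hESCs, 1 was lower in PP than in hESCs, and 6 were higher in SC-β organoids than in PP, with a median of 1.03. With median-ratio rescaling, 1 member was lower in PP than in hESCs, 1 was higher in SC-β organoids than in PP, and 0 were lower in PH than in SC-β organoids; the last count was also 0 with totals recomputed without the 100 most abundant names. At 4-fold, 0 members were higher and 1 lower in DE, 1 was higher in PGT, and 5 were higher and 0 lower in SC-β organoids than in hESCs; 1 was higher in SC-β organoids than in PP, and 0 lower in PH than in SC-β organoids. By distance, 4 of the 10 most alike genes were shared. Without the filter the background shares were lower, for example 5.14% against 8.94% for names higher in PH than in PP. The cause of these shifts was not tested beyond the changed setting itself. No paired analysis was possible because each stage is 1 averaged column, and no replicate could be left out for the same reason. The unknown depth limits values under 1 TPM most.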
